A study of Arabidopsis thaliana with 12 samples.

Results

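The 40 genes described here are the sugar transporters of the SWEET, SUC and STP families in Arabidopsis thaliana, chosen from the 32667 genes of the deposited table by name: every row with a name made of SWEET, SUC or STP and a number. They are 17 SWEET, 9 SUC and 14 STP genes. Polyadenylated RNA of 10-day-old seedlings of ecotype Columbia was sequenced in 4 groups with 3 libraries each. All groups carried the tfIIs-1 insertion (SALK_056755) in the gene of TFIIS, a factor that helps RNA polymerase II resume elongation after it stalls, and no group without that insertion is analysed here. They also carried an inducible transgene for GFP-TFIIS, a fusion to green fluorescent protein, or for GFP-TFIISmut, its mutated form. For 24 h before harvest they received either estradiol (induced), at 2 mM per the labels, or ethanol (mock). How many independent transgenic lines were used is not stated.

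The table holds 1 value per gene and group, combined by the authors from the 3 libraries and read as FPKM, in which fragments are divided by the length of the transcript and the size of the library. No value therefore has an error, no difference was tested, and what a single library contributed cannot be seen. The group of each column was read from its abbreviated name. Where 4 values follow each other, they are in the order mock and induced of the TFIIS line, then mock and induced of the TFIISmut line, and a pool is named by line and treatment (TFIIS mock). Between 13671 and 13939 genes reached 5 FPKM per pool, and the total FPKM of a pool was 900276 to 1055594. TFIIS, the induced gene, was at 21.1 (mock) and 742 (induced) FPKM with GFP-TFIIS and at 17.6 and 87.0 FPKM with GFP-TFIISmut, so the induced transcript levels of the lines differed.

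The families divide the work of moving sugar between cells and tissues. SWEET proteins are uniporters that let sugars pass down their gradient, out of cells or across the vacuolar membrane. SUC proteins couple sucrose uptake to protons and load the phloem. STP proteins take up hexoses with protons, often after sucrose has been cleaved in the cell wall. In the leaf, sucrose leaves phloem parenchyma cells through SWEET11 and SWEET12 and is taken up into companion cells by SUC2.

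Of the 40 genes, 19 reached 5 FPKM in at least 1 pool, 2 lay between 1 and 5 FPKM, 16 had values above 0 but none of 1 FPKM or more, 6 of them at 0 in some pools, and 3 were listed at 0 in every pool. The sequences shown are those just upstream of 5 genes. SWEET4 and SWEET15 were high in the TFIIS mock pool, and SWEET11, SWEET12 and SUC2 of phloem loading were lowest in the TFIISmut induced pool. That pool was the lowest for 8 of the 19 genes, or 42.1%, so these 3 are not the only ones. It was also the lowest for 36.1% of the 14835 genes of the whole table that reached 5 FPKM in a pool and were at 0 in none. Each sequence is the 250 bases before the annotated gene start in RefSeq's TAIR10.1 annotation, given 5′ to 3′ on the strand of the gene, which is the minus strand for all 5. They lie at chr3:10409978-10410227 for SWEET4, chr5:4183355-4183604 for SWEET15, chr3:18054833-18055082 for SWEET11, chr5:7973996-7974245 for SWEET12 and chr1:8033157-8033406 for SUC2. Capitals mark matches on either strand to ACGTG, the core of the abscisic acid response element, and to TTGAC, the core of the W-box read by WRKY factors. A palindromic CACGTG counts as a match on each strand.
SWEET4: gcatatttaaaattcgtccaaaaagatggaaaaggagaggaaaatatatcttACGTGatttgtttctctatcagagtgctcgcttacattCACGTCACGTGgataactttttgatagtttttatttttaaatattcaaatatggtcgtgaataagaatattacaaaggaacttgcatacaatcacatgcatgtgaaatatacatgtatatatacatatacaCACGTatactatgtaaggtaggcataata
SWEET15: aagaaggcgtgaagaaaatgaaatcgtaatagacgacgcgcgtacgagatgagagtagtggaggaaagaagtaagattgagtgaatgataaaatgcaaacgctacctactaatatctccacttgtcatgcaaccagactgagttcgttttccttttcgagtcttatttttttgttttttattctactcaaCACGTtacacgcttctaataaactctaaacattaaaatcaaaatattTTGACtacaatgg
SWEET11: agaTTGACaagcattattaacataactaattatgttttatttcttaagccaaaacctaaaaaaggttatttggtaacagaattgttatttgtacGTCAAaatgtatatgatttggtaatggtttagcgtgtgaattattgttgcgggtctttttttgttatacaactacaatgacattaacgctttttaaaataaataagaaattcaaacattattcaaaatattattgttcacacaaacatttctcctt
SWEET12: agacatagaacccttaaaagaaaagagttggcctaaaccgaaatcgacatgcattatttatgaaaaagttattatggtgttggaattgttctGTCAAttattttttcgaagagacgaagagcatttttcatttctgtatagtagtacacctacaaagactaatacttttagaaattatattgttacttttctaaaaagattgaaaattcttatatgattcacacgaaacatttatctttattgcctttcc
SUC2: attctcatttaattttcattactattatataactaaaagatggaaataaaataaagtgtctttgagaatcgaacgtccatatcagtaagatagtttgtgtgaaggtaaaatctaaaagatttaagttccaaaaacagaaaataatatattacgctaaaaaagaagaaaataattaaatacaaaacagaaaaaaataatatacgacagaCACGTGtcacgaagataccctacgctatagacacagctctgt

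The SWEET4 sequence holds 5 matches to ACGTG, at 198, 160, 155, 154 and 29 bases before the gene start, and no match to TTGAC. Of these, 3 lie in the run of 11 capitals, where those at 155 and 154 bases overlap. The reference gene, on the minus strand, begins at 10409977, while the SWEET4 row of the deposited table ends at 10409745. The 5 matches are placed by the reference start, and a window set by the row would not hold the same bases. The SWEET15 sequence holds 1 match to ACGTG at 60 bases and 1 to TTGAC at 13 bases. Among 27443 upstream regions of the same length from all nuclear protein-coding genes, 22.9% hold at least 1 match to ACGTG and 0.445% hold 5 or more. Of the 40 transporter genes, 12 hold a match to ACGTG, which is 30.0%. The SWEET11 sequence holds TTGAC matches at 247 and 156 bases and that of its paralogue SWEET12 holds 1 at 158 bases, while 44.9% of all regions and 16 of the 40 transporter regions hold at least 1. In SUC2 a single CACGTG at 42 bases gives both of its ACGTG matches. No match to either motif lies in this window for STP1 or STP13. A match describes the letters and does not show binding.

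**Figure D1:**
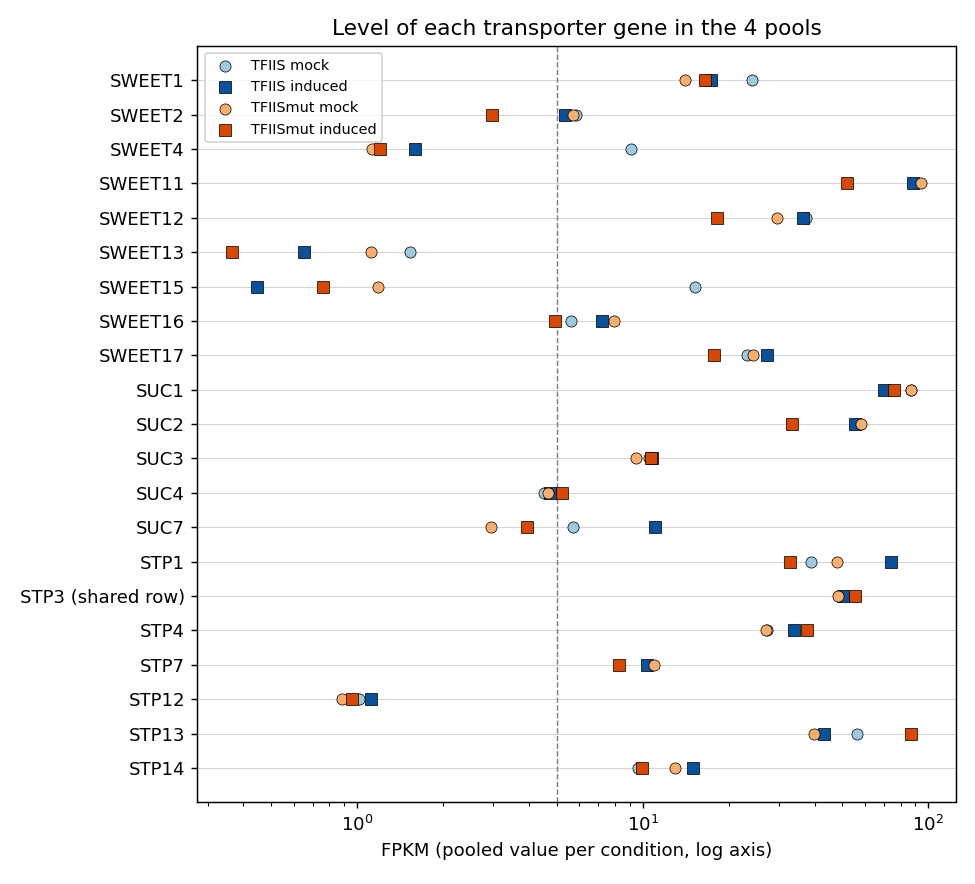
FPKM of the 21 transporter genes that reached 1 FPKM in any pool, on a log axis, with a point for each of the 4 pools and a dashed line at 5 FPKM. SWEET4 and SWEET15 stand at 9.08 and 15.3 FPKM in the TFIIS mock pool and at or below 1.60 FPKM in the other pools, and STP3 shares its row with a neighbouring gene.

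The largest SWEET levels were those of SWEET11 and SWEET12, which belong to clade III, whose members mainly transport sucrose. SWEET11 (AT3G48740) was at 90.2 (mock) and 88.4 (induced) FPKM in the TFIIS line and 94.3 (mock) and 52.0 (induced) FPKM in the TFIISmut line. Its paralogue SWEET12 (AT5G23660), with a coding sequence 82.6% identical over 852 aligned bases, was at 37.2, 36.5, 29.5 and 18.3 FPKM in the same order. In both genes the TFIISmut induced pool was the lowest and the other pools lay close together, SWEET12 in TFIISmut mock being somewhat lower than in the TFIIS pools. SUC2 (AT1G22710), the sucrose symporter of companion cells, was at 57.8, 55.5, 58.0 and 33.4 FPKM, again with the TFIISmut induced pool apart from the other 3.

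On the scale of log2(FPKM + 1), used for all differences here, SWEET11 differed by -0.85, SUC2 by -0.78 and SWEET12 by -0.66 between TFIISmut induced and TFIISmut mock. A gene was counted as higher or lower when this difference reached 1, called 2-fold, and the larger FPKM was at least 5 with neither pool at 0, so none of these 3 genes was counted as lower. Differences at or below that of SWEET11 were found in 2.79% of the 14456 eligible genes, and for SUC2 and SWEET12 the shares were 3.65% and 5.39%. In the TFIIS line the same genes differed by -0.03, -0.06 and -0.03 on induction. Between the induced pools, which share the TFIISmut induced pool with the first comparison, the values were -0.75 for SWEET11, -0.72 for SUC2 and -0.96 for SWEET12. The SWEET12 value was -1.004 under quantile normalization and -1.009 without organelle genes at a common sum, which counts as lower.

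Phloem markers also lay mostly below 0 in that comparison. Of 7 marker genes, 6 lay below 0 in TFIISmut induced against TFIISmut mock, as did 44.8% of all eligible genes. The median of the markers was -0.44 against 0.05 for all eligible genes. The 2-fold rule was passed by 0 markers, where 1.69% of all genes were lower and 5.51% higher. In TFIISmut mock against TFIIS mock, 7 of 7 markers lay above 0, with a median of 0.215, and 0 passed the 2-fold rule. For all genes that median was 0.01, and 47.7% lay below 0. Between the induced pools 4 of 6 markers lay below 0, with a median of -0.171, against 47.6% and 0.03 for all genes. AHA3, the companion cell proton pump, had the lowest value, -0.55, at 53.1 FPKM in mock and 35.9 after induction. The summed level of the list was lowest in the TFIISmut induced pool, at 168 FPKM, against 223 in its mock pool and 196 (mock) and 198 (induced) in the TFIIS line, with no marker at 0. Of 5 xylem markers, 3 were eligible and all 3 lay below 0 in TFIISmut induced against its mock, as did 44.8% of all genes. Their median was -0.385. IRX3 at -0.38 and VND7 at 0.06 were not eligible. LAC17, a laccase of lignin formation, was counted as lower, as were 1.69% of all genes. It was at 9.61 FPKM in TFIISmut mock and 4.19 after induction. The 5 xylem markers summed to 85.5, 78.5, 84.2 and 62.1 FPKM, in the order TFIIS mock, TFIIS induced, TFIISmut mock and TFIISmut induced, with none at 0. In whole seedlings, fewer cells of a type and less RNA per cell cannot be told apart, and the part of cell composition in the SWEET11, SWEET12 and SUC2 values was not tested.

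The remaining clade III genes were low or variable. SWEET13 was at 1.53, 0.654, 1.12 and 0.365 FPKM in that order. SWEET14, its closest paralogue at 81.3% coding identity, SWEET10, and the nectary gene SWEET9 all stayed under 1 FPKM, with highest values of 0.466, 0.540 and 0.0109 FPKM. Of the other clades, SWEET3, SWEET5, SWEET6, SWEET7 and SWEET8 stayed low, with a highest value of 0.270 FPKM for SWEET5; SWEET5 and SWEET8 are known from pollen and anthers.

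SWEET15 (AT5G13170; TAIR10.1 chromosome 5, 4181042 to 4183354), known as SAG29 for its rise during leaf senescence, had the widest range of the 19 genes, with a highest to lowest ratio of 34.3. It was at 15.3 (mock) and 0.446 (induced) FPKM in the TFIIS line and 1.18 (mock) and 0.762 (induced) FPKM in the TFIISmut line. SWEET4 (AT3G28007; TAIR10.1 chromosome 3, 10408073 to 10409977), a clade II hexose carrier, was at 9.08, 1.60, 1.13 and 1.20 FPKM. In both genes the TFIIS mock pool stood far above the other 3, which were at or below 1.60 FPKM. For induction in the TFIIS line, the differences were -3.50 for SWEET15 and -1.95 for SWEET4, the 2 members counted as lower among 18 eligible, where 0.789% of all genes were lower. SWEET15 was among the 9 lowest of 14203 eligible genes. No member was counted as higher there, and 0.69% of all genes were.

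The TFIIS mock pool, rather than the induced one, was the pool that stood apart. Against TFIIS mock, the TFIISmut mock pool differed by -2.90 for SWEET15 and -2.24 for SWEET4, and these were again the 2 members counted as lower, against 0.787% of all genes, and 0.248% of all genes were higher. These comparisons share the TFIIS mock pool, and both genes were eligible only through it. With TFIISmut mock as the control for TFIIS induced, SWEET4 differed by 0.29 and SWEET15 by -0.59, and the 1 member counted was SUC7, as higher, where 0.633% of all genes were higher and 0.256% lower. With TFIIS mock as the control for TFIISmut induced, SWEET4 and SWEET15 were the 2 members counted, both as lower, where 2.39% of all genes were lower and 4.73% higher. RAB18 and RD29A, which respond to abscisic acid and water loss, were high in the same pool: RAB18 was at 119 FPKM in TFIIS mock and at 1.78 to 6.76 in the others, and RD29A at 115 and 12.2 to 19.1. Whether the state of those seedlings accounts for SWEET4 and SWEET15 was not tested.

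**Figure D2:**
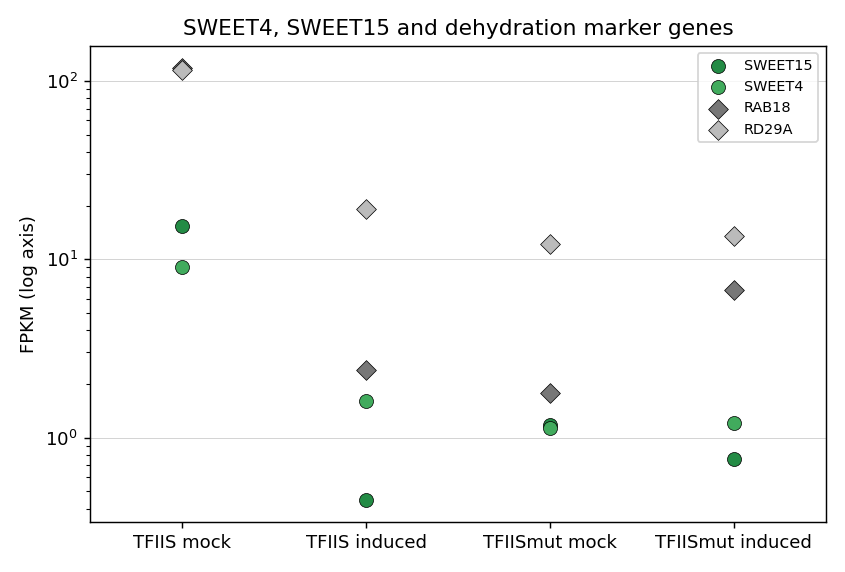
FPKM of SWEET15 and SWEET4 (circles) and of RAB18 and RD29A (diamonds) in the 4 pools, on a log axis. All 4 genes are highest in the TFIIS mock pool.

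Vacuolar and other SWEET genes showed smaller differences. SWEET17, a fructose carrier of the vacuolar membrane, was at 23.2 (mock) and 27.3 (induced) FPKM in the TFIIS line and 24.4 (mock) and 17.8 (induced) FPKM in the TFIISmut line. SWEET16, the other clade IV gene and 78.4% identical to SWEET17 in coding sequence, was at 5.61, 7.18, 7.93 and 4.92 FPKM. Both were lowest in the TFIISmut induced pool, and their induction differences had opposite signs in the lines, -0.43 and -0.59 in the TFIISmut line against 0.23 and 0.31 in the TFIIS line. SWEET2, a vacuolar carrier of root cells that limits sugar loss to the soil, was at 5.84, 5.36, 5.71 and 2.98 FPKM, a difference of -0.75 for induction in the TFIISmut line. CASP1, which marks the root endodermis, was also lowest there, at 22.8, 22.4, 21.3 and 11.4 FPKM. The 5 markers of root endodermis and root hairs, of which CASP1 alone was eligible and makes up most of the sum, summed to 33.1, 32.7, 32.7 and 20.2 FPKM, with none at 0. MYB36 was at 2.97, 3.05, 3.66 and 3.26 FPKM and RHD6 at 1.18, 0.973, 1.36 and 1.52 FPKM, so neither was lowest in that pool, and the part of these markers in the SWEET2 value was not tested.

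SWEET1, a plasma membrane glucose carrier, was at 24.1, 17.3, 14.1 and 16.6 FPKM and had its highest level in TFIIS mock. It was the only one of the 6 eligible SWEET genes above 0 for induction in the TFIISmut line, at 0.22. The other 5, SWEET2, SWEET11, SWEET12, SWEET16 and SWEET17, lay between -0.85 and -0.43, and 0 of the 6 passed the 2-fold rule. Between the induced pools, 6 of 6 eligible SWEET genes lay below 0, from -0.96 for SWEET12 to -0.06 for SWEET1. Among all genes eligible in those comparisons, 44.8% and 47.6% lay below 0.

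Summed over the 17 genes, SWEET levels were 213 (mock) and 186 (induced) FPKM in the TFIIS line and 180 (mock) and 116 (induced) FPKM in the TFIISmut line, a difference of -35.9% between the last pool and its mock. SWEET11 and SWEET12 made up 59.8% to 68.6% of these sums. Without SWEET15, clade III summed to 130, 126, 126 and 71.1 FPKM, so in FPKM 3 pools lay together and TFIISmut induced lay below them. As shares of the total FPKM of each pool, these sums were 0.0144%, 0.0123%, 0.0130% and 0.00674%. The 17 SWEET genes held 0.0237%, 0.0181%, 0.0187% and 0.0110%. On that scale TFIIS mock was the highest and TFIISmut induced again the lowest.

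**Figure D3:**
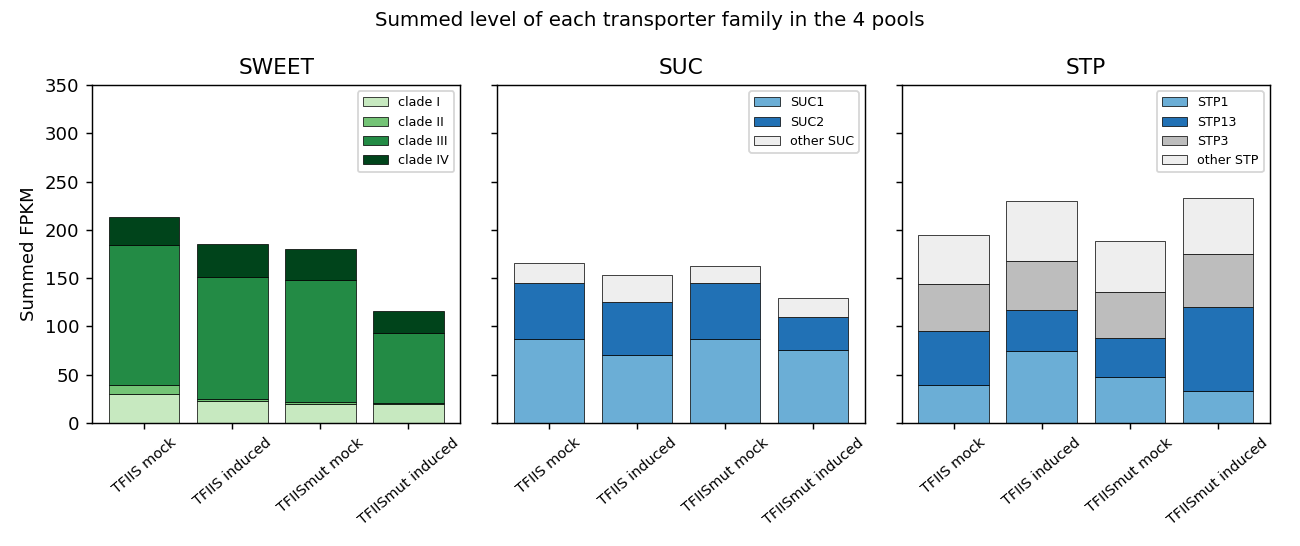
Summed FPKM of each family in the 4 pools, the SWEET genes split by clade and the SUC and STP genes by their most abundant members; the STP3 bar also holds the neighbour that shares its row. The SWEET sum is lowest in TFIISmut induced at 116 FPKM, while the STP sum there, at 233 FPKM, is the highest of the 4. As a share of the total FPKM of the pool, the STP sum is highest in TFIIS induced, at 0.0223% against 0.0220% in TFIISmut induced.

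Among the SUC genes, SUC1 and SUC2 made up 82.0% to 89.2% of the family's summed level. SUC1, a sucrose symporter of roots and pollen, was at 86.7 (mock) and 70.0 (induced) FPKM in the TFIIS line and 86.6 (mock) and 75.8 (induced) FPKM in the TFIISmut line. It was lower in both induced pools, by differences of -0.31 in the TFIIS line and -0.19 in the TFIISmut line. SUC3, at 9.47 to 10.8 FPKM, and SUC4, a vacuolar sucrose exporter at 4.52 to 5.20 FPKM, varied little, with highest to lowest ratios of 1.14 and 1.15. SUC5, a carrier of the seed, was at 0.231 to 0.848 FPKM.

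SUC7 was at 5.72 (mock) and 11.1 (induced) FPKM in the TFIIS line and 2.96 (mock) and 3.94 (induced) FPKM in the TFIISmut line. The TFIIS pools lay above the TFIISmut pools whether induced or not, and within each line the induced pool was higher. Between the induced pools the difference was -1.29, which counted as lower, and it was eligible through the TFIIS induced pool alone. SUC7 is 93.8% identical to SUC8 and 93.7% identical to SUC6 in coding sequence, over 1476 aligned bases. SUC8 and SUC9 were listed at 0 in every pool and SUC6 reached 0.00797 FPKM. Reads could pass between such copies in a way that depends on the authors' counting, so the SUC7 level is uncertain, and a listed 0 can be a failed estimate.

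STP13 (AT5G26340; TAIR10.1 chromosome 5, 9243398 to 9247540), a hexose symporter known for its rise in defence and cell death, was the 1 member counted as higher for induction in the TFIISmut line, where 5.51% of all eligible genes were higher and 1.69% lower. It was at 56.5 (mock) and 43.1 (induced) FPKM in the TFIIS line and 39.7 (mock) and 86.9 (induced) FPKM in the TFIISmut line. The TFIISmut induced pool was the highest, and the mock pools differed from each other by -0.50, with TFIISmut mock the lower. The difference was 1.11, or 2.19-fold in FPKM, with GFP-TFIISmut and -0.38 with GFP-TFIIS. It was 0.99 between the induced pools, just under the threshold although the ratio in FPKM was 2.02. The difference there was 1.01 with a pseudocount of 0.1, and it was 0.61 with TFIIS mock as the control. In the TFIISmut line it was 0.97 under quantile normalization and 0.98 without organelle genes at a common sum, both just under the threshold. The merged interval of its row also spans AT5G26320 and AT5G26330, which have rows of their own. PR1, the marker of the salicylic acid response, went from 2.41 to 212 FPKM in the TFIISmut line and from 8.44 to 2.89 FPKM in the TFIIS line. Whether that response has a part in the STP13 values was not tested.

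STP1 (AT1G11260; TAIR10.1 chromosome 1, 3777236 to 3780823), the main monosaccharide importer of seedlings, was at 38.8 (mock) and 74.2 (induced) FPKM in the TFIIS line and 48.0 (mock) and 32.8 (induced) FPKM in the TFIISmut line. The TFIIS induced pool was the highest and the TFIISmut induced pool the lowest, with the mock pools between them. Induction went with a difference of 0.92 in the TFIIS line and -0.54 in the TFIISmut line, neither counted. Between the induced pools the difference was -1.16, and STP1 and SUC7 were the 2 members counted as lower among 17 eligible, where 2.57% of all genes were lower and 5.34% higher. STP1 is also expressed in guard cells, and 2 guard cell genes were counted as lower in the same comparison, the potassium channel gene KAT1 at 6.88 and 1.92 FPKM in TFIIS induced and TFIISmut induced, and the transcription factor gene MYB60 at 12.4 and 3.96 FPKM. MUTE, of the stomatal lineage, had the opposite sign, at 2.301 and 3.82 FPKM, and was not eligible, and FAMA was at 7.65 and 3.61 FPKM. Over the 4 guard cell and stomatal genes the summed levels were 29.2, 29.3, 28.5 and 13.3 FPKM in the order of the pools above, with none at 0, and their part in the STP1 values was not tested.

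STP14, a galactose carrier, was at 9.66, 15.0, 13.0 and 9.97 FPKM, with the same signs of induction difference as STP1, 0.59 in the TFIIS line and -0.35 in the TFIISmut line. STP4, a hexose carrier of sink tissues that rises on wounding and infection, was at 27.1, 34.0, 27.0 and 37.5 FPKM and was higher in both induced pools, by 0.31 and 0.46. STP7, a carrier of pentoses, was at 10.7, 10.4, 10.9 and 8.24 FPKM. The merged interval of its row also spans 5 other annotated genes, and such intervals span 2 others for STP2 and 1 each for STP12 and SWEET5. The row of STP3, at 49.0, 50.4, 48.1 and 55.4 FPKM, is shared with AT5G61510, so the level of neither gene is known. STP12 was at 0.886 to 1.12 FPKM. The pollen genes STP6, STP9, STP10 and STP11 did not pass 0.320 FPKM, STP5 and STP8 stayed under 1 FPKM, and STP2 was listed at 0 in every pool.

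**Figure D4:**
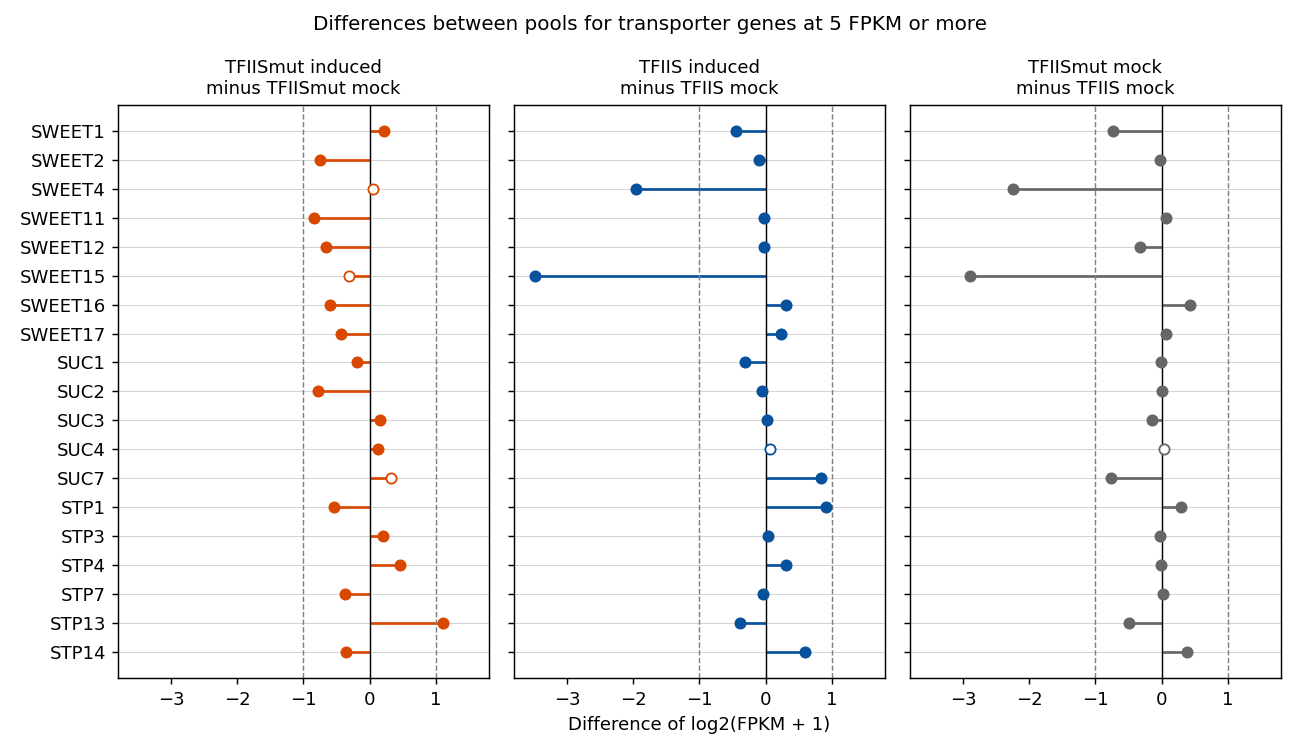
Differences of log2(FPKM + 1) for the 19 transporter genes at 5 FPKM or more, for induction in each line and between the mock pools; dashed lines mark 1 and -1, and open points are genes whose larger FPKM in that pair is under 5. STP13 at 1.11 is past the line in the TFIISmut line, and SWEET4 and SWEET15 are past it where TFIIS mock is the control.

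Summed STP levels did not follow those of the other families. The 14 rows summed to 194 (mock) and 229 (induced) FPKM in the TFIIS line and 189 (mock) and 233 (induced) FPKM in the TFIISmut line. The sum was thus higher in both induced pools, and leaving out the shared STP3 row gave 145, 179, 141 and 177 FPKM. The total FPKM of the pools also differed. As a share of that total, the 14 rows held 0.0216%, 0.0223%, 0.0196% and 0.0220%. On that scale the TFIIS pools lay close together and TFIIS induced was the highest. The most abundant gene behind these sums differed: STP1 led in TFIIS induced, with 32.4% of the family sum, and STP13 in TFIISmut induced, with 37.3%. SUC sums were 166, 153, 162 and 129 FPKM.

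For the difference of the induction effects, TFIISmut line minus TFIIS line, 19 members were eligible. SWEET15 at 3.19, SWEET4 at 2.00 and STP13 at 1.49 were counted as higher and STP1 at -1.45 as lower, against 6.57% and 2.97% of all genes. The SWEET15 and SWEET4 values rest on their levels in the TFIIS mock pool. Just short of 1 in size were STP14 at -0.94 and SWEET16 at -0.90, which reached -1.01 and -1.03 with a pseudocount of 0.1.

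**Figure D5:**
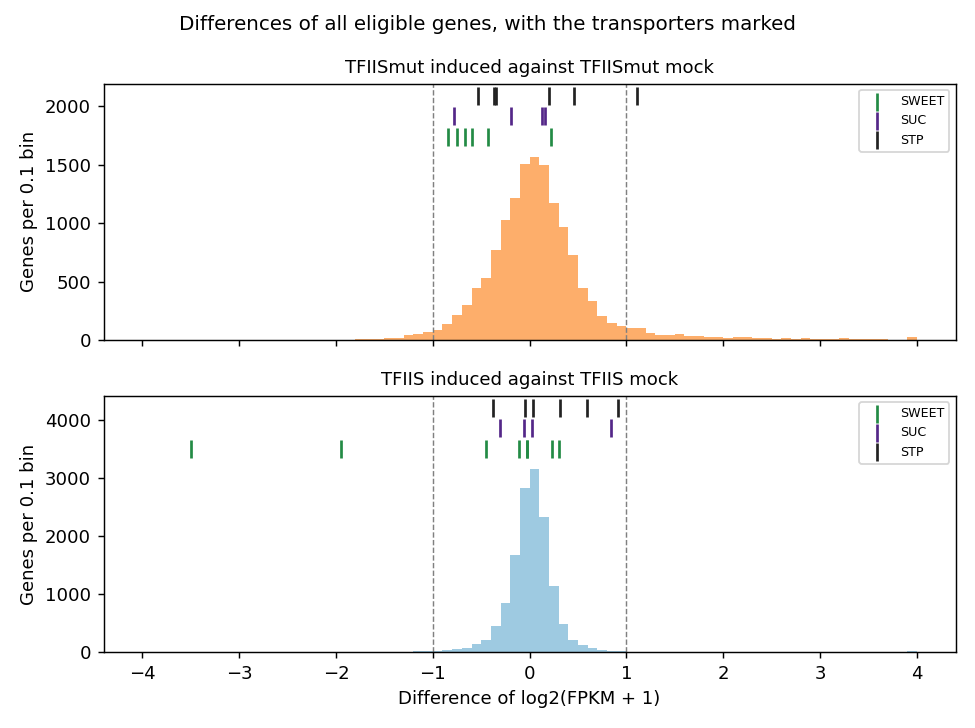
Number of genes per bin of 0.1 in the difference of log2(FPKM + 1) for induction in each line, with ticks for the eligible SWEET, SUC and STP genes and dashed lines at 1 and -1. The outermost bin at each end also holds any genes beyond it. In the TFIISmut line 5 of 6 SWEET ticks lie below 0 and STP13 stands at 1.11, and in the TFIIS line SWEET15 and SWEET4 lie at -3.50 and -1.95.

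Over the 16 members eligible for induction in the TFIISmut line, 10 lay below 0 and the median was -0.36, against 0.05 over all genes. For the TFIIS line 10 of 18 lay below 0 with a median of -0.03 against 0.02. Between the induced pools 12 of 17 lay below 0, with a median of -0.47 against 0.03. Entry to these counts depends on the level reached in the pools compared, so they describe the members and support no statement on the families.

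Other sugar carriers and the enzymes that make or split sucrose were described from lists of 23 and 21 genes, of which 21 and 21 were used. Of 14 eligible carriers, 1 was counted as higher and 0 as lower in TFIISmut induced against its mock, where 5.51% of all genes were higher and 1.69% lower, with a median of -0.07. That gene was PMT5, a symporter of polyols and monosaccharides, at 38.3 (mock) and 30.8 (induced) FPKM in the TFIIS line and 30.7 (mock) and 95.0 (induced) FPKM in the TFIISmut line. Its difference was 1.60 with GFP-TFIISmut and -0.31 with GFP-TFIIS, the same signs as STP13. Of 9 eligible enzymes, 0 were higher and 1 was lower, against the same shares of all genes, with a median of -0.38. It was SPS4, a sucrose phosphate synthase, at 7.82, 7.02, 10.3 and 2.84 FPKM, a difference of -1.56. CWINV1, the cell wall invertase that supplies hexoses for STP uptake, was at 43.9, 55.4, 39.6 and 72.3 FPKM and its difference of 0.85 was not counted. In the TFIIS line, 0 of 14 carriers and 0 of 9 enzymes passed the rule in either direction, where 0.69% of all genes were higher and 0.789% lower.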

How the data were processed

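The deposited table gives gene identifiers, names, merged loci and 4 columns of values, read as FPKM: no header names the unit, which was inferred from the layout, the decimals and column sums that differ. The authors combined 3 libraries per group before they deposited the FPKM in a way that no source used here states. Per the submitters' processing notes Bowtie2 2.3.5 was used; no source used here gives the quantifier, build or annotation. Columns were assigned to groups by reading their abbreviated names as construct and hours of estradiol.

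Of 32705 rows, 38 with repeated identifiers were left out. Differences were computed on log2(FPKM + 1) over all genes, and the 2-fold rule stood in for the planned test, which needs a value per library. The rule was run on simulated data with genes well above 5 FPKM and changes well above 2-fold. That run cannot show how the rule behaves near its threshold or at low FPKM. The depth is unknown, so there are no intervals or floors. Of the nuclear rows, 32009 matched RefSeq's TAIR10.1 annotation by locus and 100% of these overlapped the reference gene. Only 38.5% had the same lower coordinate, counted from 0 or from 1, so the ends of most rows differ from the reference. Sequences were read at the reference's own coordinates. Members reaching 5 FPKM were named with 4 values. Members, gene lists and motifs were chosen with earlier results of these data known. Of 67 list genes, 63 were used: 2 were not analysed here, and VGT2 and GC1 were left out because no name at their locus matched. PMT3, PMT4 and VI1 were used under other names in the table. Coding identity was the share of equal bases in global alignments. The alternatives were a pseudocount of 0.1, other scalings, other filters, a 1.5-fold rule and the other mock pool. Python 3.11.15, pandas 2.3.3 and Biopython 1.88 were used.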

Additional observations from a re-analysis of the deposited data

Results flagged for a closer look

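For 3 genes the induction difference had opposite signs in the lines as deposited and the difference between them passed 1. STP1 was higher on induction in the TFIIS line and lower in the TFIISmut line, a difference of -1.45. STP13 was the reverse, at 1.49, but with TFIISmut mock as the control its value in the TFIIS line was 0.12. SWEET4 had 2.00, from 0.05 with GFP-TFIISmut and -1.95 with GFP-TFIIS, and rests on the TFIIS mock pool. In the TFIISmut line its value was -0.03 under quantile normalization and -0.02 without organelle genes, the same sign as in the TFIIS line, and SWEET4 was not eligible there. These differences were not tested, since each line has a single pooled value per treatment.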

How the results depend on the processing

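No paired analysis was possible because each group has a single pooled value, and for the same reason no library could be left out. For TFIISmut induced against its mock, the count of members past the rule went from 1 to 0 under quantile normalization and to 0 with organelle genes left out and a common sum, to 6 under a 1.5-fold rule (1 higher and 5 lower, where 11.5% and 7.31% of all genes were), and to 2 with TFIIS mock as the control, these being SWEET4 and SWEET15. For TFIIS induced against its mock, 2 became 5 under the 1.5-fold rule (3 higher and 2 lower, against 1.9% and 2.25% of all genes) and 1, SUC7, with TFIISmut mock as the control, where SWEET4 was at 0.29. Under the 1.5-fold rule the count went from 2 to 4 between the mock pools (0 higher and 4 lower, against 1.14% and 2.39% of all genes), from 2 to 8 between the induced pools (1 and 7, against 13.0% and 9.22%) and from 4 to 12 for the difference of effects (4 and 8, against 13.2% and 9.61%). Leaving out organelle genes with a common sum moved the median of all genes by -0.13 in the TFIISmut line and by -0.17 in the TFIIS line. The other counts stayed within 1.5 times. Of 185 alternative values for the 5 genes past the rule in a comparison, 75 came from a filter or threshold that leaves the value as it is. Of the other 110, 91 moved by less than 0.177, the robust SD between the mock pools, and 19 by more, and 6 changed sign. With the other mock pool as control these were SWEET4 in both lines (-2.19 and 0.29), SUC7 in the TFIISmut line (-0.44) and STP13 in the TFIIS line (0.12). SWEET4 in the TFIISmut line was also at -0.03 under quantile normalization and -0.02 without organelle genes.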

Other observations

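The 3 closest pairs of neighbouring members belong each to 1 family. SUC1 and SUC5 lie 1916 bases apart on chromosome 1, and in TFIIS mock were at 86.7 and 0.675 FPKM. STP4 and STP10 lie 1013 bases apart on chromosome 3, with STP4 at 27.1 FPKM and STP10 listed at 0 in the same pool. SWEET10 and SWEET13, 7066 bases apart on chromosome 5, were both low: SWEET10 was at 0.316, 0.540, 0.366 and 0.261 FPKM and SWEET13 at 1.53, 0.654, 1.12 and 0.365 FPKM in the order TFIIS mock, TFIIS induced, TFIISmut mock and TFIISmut induced.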
